A study of Rattus norvegicus with 30 samples.

Results

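The comparison described here is MEHP against corn oil in rat testis 6 h after a single gavage. It uses 6 of the 30 arrays of the series, assigned to their groups by their labels: animals 31, 32 and 33 received MEHP, and animals 34, 35 and 36 received corn oil. All were Fischer rats, male per the series title, of postnatal day 28. The MEHP animals were given 1 g/kg of MEHP dissolved in corn oil by oral gavage, the control animals corn oil alone, and all were killed with CO2. The dose field of the corn oil animals also reads 1 g/kg, with corn oil named as the treatment. Total RNA of the testis of each animal was hybridised to its own Affymetrix Rat230_2 array, so each group holds 3 animals and no array is a technical repeat. The series also holds MEHP and corn oil groups of 3 animals each at 1, 2, 3 and 12 h, with their own control animals at every time, and these were used for the shared estimate of spread and for the time course. Every probe set other than the array's controls entered, as log2(signal + 16), where the signal is the deposited intensity.

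MEHP is mono-(2-ethylhexyl) phthalate, the toxic monoester that the body makes from the plasticizer DEHP, and in young rats it is known as a toxicant of the Sertoli cell, the somatic cell that surrounds and nourishes germ cells inside the seminiferous tubule. Stressed somatic cells switch on immediate early genes within minutes to hours: AP-1 and EGR transcription factors, the phosphatases and RNA-binding proteins that turn the same signals off again, and chemokines and feedback inhibitors of the NF-kB pathway. The Leydig cells between the tubules make testosterone, and Star, the protein that carries cholesterol into the mitochondrion, supports its rate-limiting step and responds quickly to luteinizing hormone.

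At 6 h after MEHP the testis showed a small set of large increases and very few decreases. Of 21190 probe sets tested, 43 passed an adjusted p of 0.05 (limma, Benjamini-Hochberg), which is 0.203%. The higher ones numbered 38 (0.179%) and the lower ones 5 (0.0236%). They stood for 33 named genes, 29 higher and 4 lower, plus 9 probe sets without a single gene symbol, of which 8 were higher and 1 was lower. Among the higher probe sets 29 changed at least 2-fold and 15 at least 4-fold, with a median of 1.34 in log2, while the median over all tested probe sets was 0.004 and 50.9% lay above 0. In each of the 43 the 3 MEHP animals lay entirely to 1 side of the 3 corn oil animals. Over all tested probe sets the MEHP animals lay entirely above in 7.62% and entirely below in 4.36%.

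**Figure D1:**
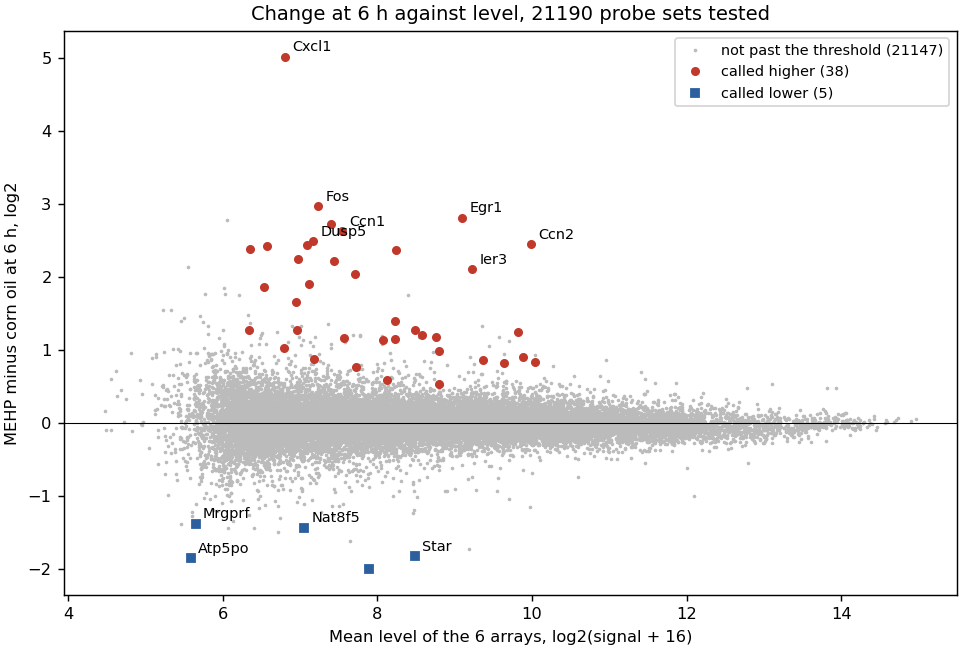
MEHP minus corn oil at 6 h (vertical axis, log2) against the mean level of the 6 arrays (horizontal axis, log2(signal + 16)) for 21190 probe sets, 1 point each; red circles are the 38 called higher, blue squares the 5 called lower and grey points the rest. Cxcl1 stands above all others at 5.02, and the called increases reach further from 0 than the called decreases.

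The number of calls depended on single animals. It was 22, 18 and 17 without corn oil animals 34, 35 and 36, and 38, 13 and 35 without MEHP animals 31, 32 and 33. All 43 kept their direction under each of these 6 omissions, and 13 kept their call under every one: Cxcl1, Ccn1, Ccn2, Ier3, Dusp1, Dusp5, Nfkbia, Nfkbiz, Egr1, Ppp1r15a, 1 of the Rab20 probe sets and 2 probe sets without a name. Fitting the 6 arrays of 6 h alone called 10 probe sets, of which 8 were among the 43 and 7 among these 13. The MEHP animals were not alike. Animal 31 had the lowest signal of the 3 in 28 of the 38 higher probe sets, animal 32 in 4 and animal 33 in 6. The mean over those 38 in log2(signal + 16) was 8.48 in animal 31, 8.97 in animal 32 and 9.04 in animal 33, against 7.04 to 7.18 in the corn oil animals. Animal 31 therefore stood between the corn oil animals and the other MEHP animals, and nearer to the latter. Over all tested probe sets it was animal 33 that lay farthest from its group, with a residual SD of 0.375 in log2 against 0.177 to 0.254 on the other 5 arrays. Its array correlated with r = 0.965 and 0.964 with those of MEHP animals 31 and 32, and with r = 0.980 with that of corn oil animal 35.

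Of the array measures, the 3' to 5' ratio of actin probe sets separated the groups. With 3 animals against 3 the exact test cannot give a p below 0.1. The median signal was 131 ± 12 (SD, n = 3) in the MEHP animals against 128 ± 11 in their controls (exact permutation test, two-sided, p = 1). The level of 18 spiked bacterial controls in log2 was 10.96 ± 0.18 and 11.07 ± 0.25 (exact p = 0.7). The actin ratio, which rises as RNA breaks down, was 1.175, 1.171 and 1.117 in log2 in MEHP animals 31, 32 and 33 and 1.239, 1.194 and 1.190 in corn oil animals 34, 35 and 36 (exact p = 0.1, the smallest possible). All 3 MEHP animals were therefore lower, by 0.05 on average, and its part in the results was not tested. The ratio of GAPDH was -0.15 ± 0.02 and -0.15 ± 0.08 (exact p = 1), and that of hexokinase 1.30 ± 1.02 and 2.39 ± 0.52 (exact p = 0.2). RNA integrity numbers were 9.2 ± 0.8 in 3 MEHP animals and 8.9 ± 0.71 in 2 corn oil animals (exact p = 1), with no number for animal 35 in the labels used here. Gavage volumes were 0.278 ± 0.013 and 0.29 ± 0.013 ml (exact p = 0.5). None of 57 control probe sets passed the threshold in limma (smallest adjusted p 0.896).

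Among secreted signals, 3 chemokines and 1 cytokine rose. The largest increase on the array was that of Cxcl1, a chemokine that draws neutrophils. Its signals were 2.18, 3.59 and 5.20 in corn oil animals 34, 35 and 36, close to the bottom of the scale, and 474, 707 and 715 in MEHP animals 31, 32 and 33. The change was 5.02 ± 0.41 in log2 (SE), or 32.5-fold on the log2(signal + 16) scale, which understates the change of a gene whose control signals are this low (adjusted p = 1.75e-07). Its promoter window, 250 bases before to 50 after the transcription start in RefSeq on GRCr8 (chr14:17479272-17479571, minus strand), is shown here because it holds a match to the kappa-B motif, the sequence NF-kB proteins bind, marked in capitals:

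Cxcl1: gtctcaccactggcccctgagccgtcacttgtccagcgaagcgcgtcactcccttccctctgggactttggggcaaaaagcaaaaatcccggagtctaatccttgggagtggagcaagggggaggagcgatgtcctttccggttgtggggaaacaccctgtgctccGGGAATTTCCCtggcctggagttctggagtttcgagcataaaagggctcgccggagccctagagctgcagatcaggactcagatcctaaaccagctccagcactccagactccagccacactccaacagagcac

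The capitals are 2 overlapping matches, 1 on each strand, that begin 84 and 83 bases before the start.

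Cx3cl1, the membrane-bound chemokine fractalkine, gave 60.2, 53.4 and 48.6 after corn oil and 164, 271 and 190 after MEHP, a change of 1.66 ± 0.35 (adjusted p = 0.0408). Cxcl10, an interferon-inducible chemokine for T cells, gave 73.5, 59.1 and 61.4 against 135, 243 and 170, a change of 1.27 ± 0.27 (adjusted p = 0.0451). For the cytokine Il1a, interleukin 1 alpha, the values were 223, 233 and 192 against 331, 571 and 847, a change of 1.28 ± 0.27 (adjusted p = 0.0408). MEHP animals were above corn oil animals for all 4, with Cxcl1 the farthest apart and Il1a the least even among the treated animals. A further Il1a probe set changed by 1.21 ± 0.31 without passing (adjusted p = 0.175). Calls for Cx3cl1 were lost under each of the 6 omissions (adjusted p 0.0613 to 0.377), for Cxcl10 under all but that of MEHP animal 31 (0.108 to 0.487), and for Il1a under all but that of the same animal (0.134 to 0.257). Those for Cxcl1 were lost under none.

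The rest of the ligand lists did not pass. Of 10 measured CXC and CX3C chemokines 3 were called and the median change was 0.37, against -0.002 over the 11280 genes tested, 26 of them called higher and 3 lower by the probe set that represents each gene. Of 7 CC chemokines none was called (median 0.13), and Ccl2, a monocyte chemokine, had mean signals of 30.8 ± 9.9 after corn oil and 52.5 ± 22.3 after MEHP (adjusted p = 0.999). Of 10 cytokines of the IL-1, IL-6 and TNF families Il1a alone was called (median 0.10). Il1b gave 9.65 ± 0.85 and 33.5 ± 15.1 (change 0.91 ± 0.37, adjusted p = 0.797), and Il6 10.5 ± 11.6 and 21.7 ± 3.5 (adjusted p = 0.999). Both Tnf probe sets fell below the filter on low signals. Of 13 cytokine receptors none was called (median 0.05). The largest receptor changes were those of Tnfrsf12a, the TWEAK receptor, at 1.76 ± 0.46 (adjusted p = 0.18), and Il6r at 1.08 ± 0.28 (adjusted p = 0.175).

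No marker of the leukocytes that such signals attract passed the threshold. Of 5 measured neutrophil markers none was called, their median change was 0.02, and their summed signal was 197 to 255 after corn oil and 206 to 256 after MEHP. The defining neutrophil genes S100a8 and S100a9 were near the bottom of the scale in both groups, at 11.5 ± 9.9 and 9.23 ± 9.82 after corn oil and 14.65 ± 21.1 and 15.55 ± 11.1 after MEHP. None of 18 macrophage and monocyte markers was called (median 0.03), with summed signals of 3916 to 4180 and 3662 to 4553. The CD68 gene Cd68 changed by 0.004 ± 0.21. None of 8 lymphocyte markers was called (median -0.05).

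In the NF-kB pathway 3 of 20 measured genes were called, all higher, and 16 lay above 0 with a median of 0.33. The most uniform change was that of Nfkbia, the inhibitor that holds NF-kB in the cytoplasm and is resynthesised when the pathway fires. Its signals were 538, 620 and 589 after corn oil and 981, 1051 and 1093 after MEHP, a change of 0.82 ± 0.12 (adjusted p = 0.00078), and the 2 groups were far apart relative to the spread in each. Nfkbiz, a nuclear cofactor that selects secondary NF-kB targets, gave 49.2, 40.2 and 36.4 against 194, 296 and 303, a change of 2.25 ± 0.30 (adjusted p = 0.00026). Nfkb2, the p100 precursor of the non-canonical pathway, gave 13.2, 76.8 and 26.5 against 110, 190 and 199, a change of 1.87 ± 0.39 (adjusted p = 0.0408). Corn oil animal 35 came nearest to the MEHP animals there, and the Nfkb2 call was lost without animal 32, 33, 34 or 36 (adjusted p 0.162 to 0.323). Members that did not pass include Ripk2, a kinase upstream of NF-kB (1.18 ± 0.29, adjusted p = 0.136), Relb, the partner of Nfkb2 (1.03 ± 0.26, adjusted p = 0.164), and Tnfaip3, the A20 feedback inhibitor (0.80 ± 0.22, adjusted p = 0.208). Rela, the main activating subunit, changed by 0.13 ± 0.13.

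The kappa-B motif was looked for in the promoter windows of the called genes, of which 26 of 33 matched an entry (24 higher, 2 lower). It was found on either strand in 7 of the 24 higher genes (29.2%), in 4.83% of the 9443 tested genes with a window and in 4.16% of all 27457 windows. Those 7 genes included the 3 NF-kB genes. The matches are printed so that the sites can be compared; each line is 30 bases of the gene's own strand from RefSeq on GRCr8, with the match in capitals.

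Cxcl1: cctgtgctccGGGAATTTCCCtggcctgga
Nfkbia: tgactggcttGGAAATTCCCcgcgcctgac
Nfkbiz: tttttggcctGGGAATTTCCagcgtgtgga
Nfkb2: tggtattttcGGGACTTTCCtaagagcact
Ccn2: aggaatgcgaGGAATGTCCCtgtttgtgta
Cxcl10: gcaggaaagaGGGAAATTCCaagctcatgg
Egr4: tttccttttcGGGAGTCCCCggcatacatc

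The Cxcl1 line is chr14:17479386-17479415 (minus strand), Nfkbia chr6:78597084-78597113 (minus), Nfkbiz chr11:58251698-58251727 (plus), Nfkb2 chr1:255108344-255108373 (plus), Ccn2 chr1:22624687-22624716 (minus), Cxcl10 chr14:15988869-15988898 (plus) and Egr4 chr4:119607951-119607980 (minus). Matches began 13 bases before the start in Nfkbiz, 20 in Nfkb2, 31 in Nfkbia, 84 in Cxcl1, 92 in Ccn2, 153 in Egr4 and 187 in Cxcl10. A match says that these letters are present, not that a factor was bound. Other motifs were looked for in the same windows. The AP-1 motif TGANTCA was found in 4 of the 24 (16.7%, against 4.78% of tested genes), the cAMP response element TGACGTCA in 2 (8.33%, against 3.29%) and the TATA box, searched as TATAAA on both strands like the rest, in 10 (41.7%, against 6.85%). These counts take a match anywhere in the window. The TATAAA matches began 31 to 49 bases before the start in Ccn1, Ccn2, Errfi1, Il1a, Junb and Ppp1r15a, with a further one in Il1a at 237. They began 78, 110 and 162 bases before it in Cx3cl1, Edn1 and Cxcl10, and 17 after it in Nfkbia.

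Immediate early transcription factors made the next group, with 5 of 19 measured members called, all higher, 17 above 0 and a median of 0.71. Egr1, a zinc finger factor induced by growth and stress signals, gave 287, 171 and 138 after corn oil and 600, 1957 and 2508 after MEHP, a change of 2.82 ± 0.44 (adjusted p = 0.00222). Fos, the AP-1 subunit, gave 40.9, 32.3 and 40.7 against 101, 507 and 1228, a change of 2.98 ± 0.59 (adjusted p = 0.0252). The 3 corn oil animals agreed closely for Fos, whereas the MEHP animals spanned a wide range, with animal 31 lowest and animal 33 highest. Atf3, a stress-induced factor that pairs with AP-1 proteins, gave 37.8, 35.1 and 8.92 against 112, 251 and 301 (2.43 ± 0.40, adjusted p = 0.00438). Junb, another AP-1 subunit, gave 121, 105 and 104 against 185, 260 and 395 (1.17 ± 0.21, adjusted p = 0.0139). Egr4 gave 186, 182 and 143 against 402, 398 and 664 (1.41 ± 0.27, adjusted p = 0.0222). For each of the 5 the lowest MEHP animal was above the highest corn oil animal.

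Egr1 kept its call under every omission (change 2.42 to 3.44, adjusted p at most 0.0352). That of Atf3 was lost without animal 32 or 36 (adjusted p 0.0611 and 0.071), that of Junb without 32, 33, 35 or 36 (0.0709 to 0.113), and those of Fos and Egr4 without any animal but 31 (0.101 to 0.206 and 0.0611 to 0.198). Fos changed by 2.20 to 3.91 across the omissions. Members that did not pass were led by Jun (1.32 ± 0.29, adjusted p = 0.057), Egr2 (1.48 ± 0.50, adjusted p = 0.52) and Klf6 (0.78 ± 0.27, adjusted p = 0.52). Egr3 and Myc lay near 0, at 0.005 ± 0.30 and -0.04 ± 0.34.

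**Figure D2:**
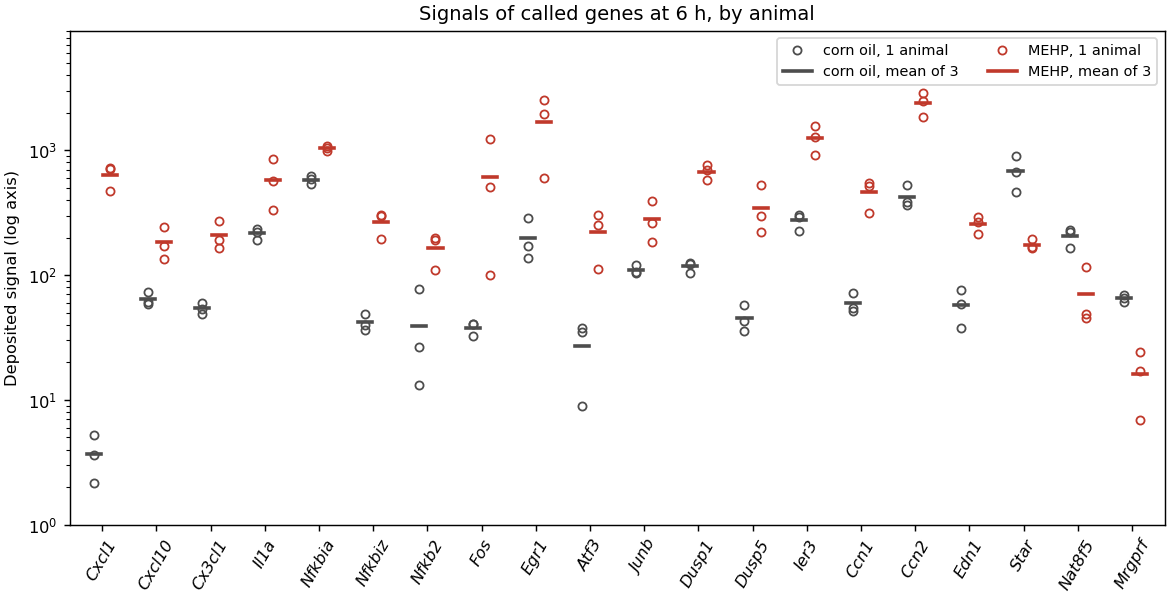
Deposited signal (log axis) of 20 genes called at 6 h; open circles are single animals, grey for the 3 corn oil and red for the 3 MEHP animals, and bars are group means. In each of the genes the groups do not overlap; Fos and Egr1 spread most among the MEHP animals, and Star, Nat8f5 and Mrgprf, at the right, are the 3 that are lower after MEHP.

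Of 22 measured genes in the list of IER, ZFP36 and MAP kinase phosphatase feedback genes, 5 were called, all higher. The list also holds other early response genes, such as those of the Gadd45 and Plk families, Rhob and Sgk1. In all 21 of the 22 lay above 0, with a median of 0.52. Dusp1, a nuclear phosphatase of p38 and JNK, gave 104, 124 and 126 after corn oil and 578, 693 and 757 after MEHP, a change of 2.37 ± 0.26 (adjusted p = 1.38e-05). Dusp5, a nuclear phosphatase of ERK, gave 35.9, 57.5 and 42.8 against 220, 300 and 524, a change of 2.50 ± 0.35 (adjusted p = 0.000454). Ier3, a survival factor induced by NF-kB and ERK, gave 303, 292 and 228 against 916, 1279 and 1571, a change of 2.11 ± 0.23 (adjusted p = 1.3e-05). All 3 were clear of the control range by more than the spread within either group, and they kept their calls under each omission.

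Smaller changes were found for Zfp36, or tristetraprolin, which destabilises cytokine and immediate early mRNAs, and for Errfi1, a feedback inhibitor of the EGF receptor. Zfp36 gave 212, 188 and 157 after corn oil and 346, 437 and 526 after MEHP (1.16 ± 0.22, adjusted p = 0.0212). Errfi1 gave 694, 633 and 689 against 948, 1270 and 1721 (0.91 ± 0.17, adjusted p = 0.0139). Ppp1r15a, or GADD34, the phosphatase subunit that restores translation after stress, gave 275, 282 and 259 against 493, 629 and 839 (1.19 ± 0.19, adjusted p = 0.00244). In these 3 genes MEHP animal 31 was lowest and animal 33 highest. The Zfp36 call was lost without animal 32, 33, 35 or 36 (adjusted p 0.0931 to 0.191) and that of Errfi1 without any animal but 31 (0.0556 to 0.114). Ppp1r15a is a member of the integrated and endoplasmic reticulum stress list with Atf3. These were the 2 called of its 22 measured members, whose median was 0.007, with 11 above 0 and 11 below. A further Dusp1 probe set of lower signal changed by 1.77 ± 0.40 (adjusted p = 0.0714), and Spry1, an ERK pathway inhibitor, by 1.32 ± 0.33 (adjusted p = 0.128).

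The CArG box, the site of serum response factor, was present in the windows of 3 of the 24 higher genes (12.5%, against 1.36% of tested genes): Dusp5, Egr1 and Zfp36. Dusp5 is printed because its window holds 2 of them side by side (GRCr8, chr1:262543524-262543823, plus strand; capitals mark the CArG boxes, which begin 82 and 72 bases before the start):

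Dusp5: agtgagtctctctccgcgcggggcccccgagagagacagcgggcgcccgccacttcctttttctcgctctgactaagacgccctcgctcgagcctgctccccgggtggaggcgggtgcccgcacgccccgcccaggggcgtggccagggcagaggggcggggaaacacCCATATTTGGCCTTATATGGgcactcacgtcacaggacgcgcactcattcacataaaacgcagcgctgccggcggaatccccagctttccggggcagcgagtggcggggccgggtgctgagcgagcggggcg

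In the Egr1 window, the CArG boxes began 105 and 83 bases before the start. Srf itself changed by 0.43 ± 0.14 (adjusted p = 0.508).

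Ccn1 and Ccn2, secreted matricellular proteins that bind integrins and are targets of YAP and of serum response factor, were among the strongest changes. Ccn1 gave 71.9, 51.2 and 54.8 after corn oil and 313, 548 and 519 after MEHP, a change of 2.63 ± 0.23 (adjusted p = 2.7e-07). Ccn2 gave 523, 362 and 382 against 2464, 2885 and 1841, a change of 2.46 ± 0.24 (adjusted p = 2.01e-06). Their groups were far apart, and neither call was lost under any omission. For Ccn2 it was animal 33, not animal 31, that had the lowest MEHP signal. None of the other 6 measured genes of the CCN and YAP list passed (8 measured, 7 above 0, median 0.41). Ccn3 changed by -0.002 ± 0.20, and Ajuba, a LIM protein of the Hippo pathway, by 0.50 ± 0.16 (adjusted p = 0.44). The window of Ccn2 is printed because it holds both a kappa-B match and a TATA box, the latter beginning 31 bases before the start (GRCr8, chr1:22624565-22624864, minus strand; capitals mark both):

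Ccn2: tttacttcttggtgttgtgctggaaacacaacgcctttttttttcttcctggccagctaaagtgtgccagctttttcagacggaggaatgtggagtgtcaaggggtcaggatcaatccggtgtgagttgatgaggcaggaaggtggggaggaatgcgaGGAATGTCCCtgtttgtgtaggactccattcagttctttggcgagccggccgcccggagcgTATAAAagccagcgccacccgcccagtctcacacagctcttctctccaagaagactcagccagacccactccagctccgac

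That of Ccn1 held a TATA box beginning 34 bases before the start and no match to the other motifs searched (GRCr8, chr2:237225640-237225939, minus strand; capitals mark the TATA box), and is printed beside it as the related gene with the higher fold change:

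Ccn1: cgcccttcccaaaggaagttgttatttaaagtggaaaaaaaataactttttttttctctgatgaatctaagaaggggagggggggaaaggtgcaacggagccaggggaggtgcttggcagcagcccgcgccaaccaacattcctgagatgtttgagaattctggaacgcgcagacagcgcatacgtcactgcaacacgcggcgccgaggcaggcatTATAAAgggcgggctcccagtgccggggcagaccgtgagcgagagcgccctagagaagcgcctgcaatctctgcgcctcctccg

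Edn1, Timp3 and Ctsl were also called higher. Edn1, the vasoconstrictor endothelin 1, gave 59.2, 37.4 and 76.3 after corn oil and 212, 294 and 264 after MEHP (1.91 ± 0.32, adjusted p = 0.005), and its call was lost without animal 32 or 35 (adjusted p 0.0611 and 0.0747). Timp3, an inhibitor of matrix metalloproteinases, gave 1003, 656 and 702 against 1251, 1571 and 1370 (0.83 ± 0.17, adjusted p = 0.0252). The gene has 3 further probe sets that did not pass, with changes of 0.78 ± 0.18 (adjusted p = 0.0714), 0.53 ± 0.23 (0.818) and 0.35 ± 0.18 (0.998). Ctsl, cathepsin L, a protease that Sertoli cells are known to secrete, gave 471, 506 and 445 against 1016, 1089 and 608 (0.87 ± 0.19, adjusted p = 0.0462). The brighter Ctsl probe set, which represents the gene in the lists, changed by 0.55 ± 0.23 (adjusted p = 0.8). Neither call was stable: Timp3 was lost without animal 32, 33, 35 or 36 (0.0825 to 0.264) and Ctsl without any but 33 (0.147 to 0.506). By the brightest probe set of each gene, none of the 18 measured matrix genes passed (median 0.12). Testin, a secreted Sertoli cell protein of the cathepsin family, had mean signals of 125 ± 51 and 310 ± 126 (1.20 ± 0.53, adjusted p = 0.883).

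The remaining named increases were those of Rab20, Kcnk6, Stxbp6, Chmp4c, Dpysl5 and Lipa. Rab20, a small GTPase of endosomes and phagosomes, was called by 2 probe sets. The brighter one gave 575, 600 and 541 after corn oil and 1305, 1438 and 1419 after MEHP (1.25 ± 0.18, adjusted p = 0.000763), and the other 279, 245 and 191 against 572, 605 and 518 (1.21 ± 0.22, adjusted p = 0.0139). A further, dim Rab20 probe set changed by -0.42 ± 0.33 (adjusted p = 0.999), so the 3 probe sets of the gene disagree. Kcnk6, a background potassium channel, gave 165, 222 and 124 against 341, 460 and 365 (1.14 ± 0.20, adjusted p = 0.00695), while a second probe set changed by 0.45 ± 0.24 (adjusted p = 0.999). Stxbp6, a SNARE-binding protein of exocytosis, changed by 0.88 ± 0.17 (adjusted p = 0.0221), Chmp4c, of the ESCRT-III membrane scission complex, by 0.77 ± 0.16 (0.0262), Dpysl5, a dihydropyrimidinase-like protein of the cytoskeleton, by 0.59 ± 0.12 (0.032), and Lipa, lysosomal acid lipase, by 0.54 ± 0.11 (0.0322). Each of these 4 calls was lost under at least 5 of the 6 omissions (adjusted p 0.0611 to 0.354), and a brighter Stxbp6 probe set changed by 0.83 ± 0.18 without passing (adjusted p = 0.0577). The brighter Rab20 probe set was lost under none, the dimmer called one without animal 31, 32, 35 or 36 (adjusted p 0.0553 to 0.169), and Kcnk6 without 32 or 36 (0.0958 and 0.1).

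Among the genes called lower, Star stood out by its time course. Its signals at 6 h were 675, 907 and 463 after corn oil and 167, 164 and 194 after MEHP, a change of -1.82 ± 0.38 (adjusted p = 0.0408). The groups did not overlap, and the MEHP animals were nearly equal while the corn oil animals were not. Its call was lost under each of the 6 omissions (change -1.60 to -2.07, adjusted p 0.0664 to 0.324). A second Star probe set gave 342, 375 and 294 against 73.5, 111 and 116, a change of -1.62 ± 0.37 (adjusted p = 0.0714). At 1, 2, 3 and 12 h, in other animals, the change of the called Star probe set was 0.37 ± 0.38, 1.04 ± 0.38, 1.01 ± 0.38 and 1.38 ± 0.38, of which the last passed (adjusted p = 0.0218), and the effect at 12 h exceeded that at 6 h by 3.21 ± 0.54 (adjusted p = 0.00318). The second probe set changed by 0.08 ± 0.37, -0.24 ± 0.37, 0.86 ± 0.37 and 0.49 ± 0.37 at these times. None of these passed (adjusted p = 0.518 at 12 h). Its effect at 12 h exceeded that at 6 h by 2.11 ± 0.52 (adjusted p = 0.0374).

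By group means, Star at 6 h was higher after corn oil, and lower after MEHP, than at the other times. For the called probe set the corn oil mean at 6 h was 682 ± 222. Corn oil means were 292 ± 125, 144 ± 31, 194 ± 119 and 152 ± 76 at 1, 2, 3 and 12 h. The MEHP mean at 6 h, 175 ± 17, was lower than the MEHP means of 363 ± 43, 325 ± 118, 396 ± 192 and 407 ± 122 at those times. In a contrast added after these values were seen, corn oil at 6 h exceeded the mean of the 4 other corn oil groups by 1.81 ± 0.30 in log2 (limma, adjusted p = 0.0408). MEHP at 6 h differed from that mean by -0.02 ± 0.30 (adjusted p = 0.985). The 12 corn oil animals of other times ranged from 101 to 429 with a median of 160, which encloses all 3 MEHP animals of 6 h. For the second Star probe set the same contrasts gave 0.74 ± 0.29 (adjusted p = 0.21) and -0.88 ± 0.29 (adjusted p = 0.221). Per the labels, the 6 h animals were gavaged at 10 am, those of 1, 2 and 3 h at 1 pm and those of 12 h at 6 am, each within the hour. Gavage volumes were 0.28 to 0.305 ml in the corn oil animals of 6 h and 0.178 to 0.245 ml in the 12 of other times. The hour of gavage, the time after it and, among corn oil animals, the volume therefore cannot be told apart where 6 h is compared with other times.

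**Figure D3:**
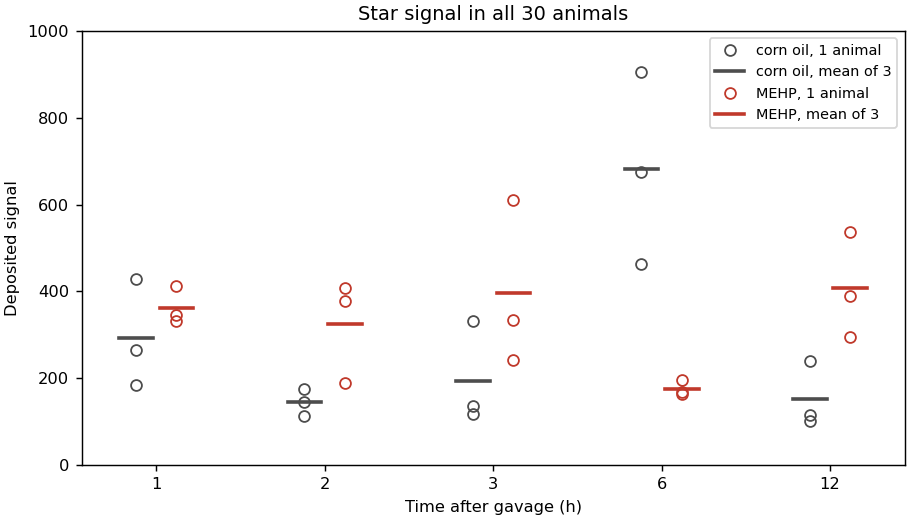
Deposited signal of the called Star probe set (vertical axis, from 0) in all 30 animals by time after gavage; open circles are single animals and bars means of 3, grey for corn oil and red for MEHP. The 3 corn oil animals at 6 h, at 463 to 907, lie above every other corn oil animal.

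The other steroid and Leydig cell genes did not pass, although most had lower values after MEHP. Of 15 measured steroid synthesis genes Star alone was called, 12 lay below 0 and the median was -0.19. Of 10 Leydig cell markers, 8 of them also in the steroid list, 9 lay below 0 and the median was -0.58. Hsd3b1, which converts pregnenolone to progesterone, had means of 5100 ± 873 and 3310 ± 123 (-0.61 ± 0.18, adjusted p = 0.356). Cyp17a1, which makes androgen precursors, had 6199 ± 527 and 3242 ± 1250 (-0.99 ± 0.55, adjusted p = 0.999), and Cyp11a1, the side-chain cleavage enzyme, 650 ± 110 and 339 ± 97 (-0.94 ± 0.36, adjusted p = 0.722). Scarb1, the lipoprotein receptor that supplies cholesterol, changed by -0.92 ± 0.28 (adjusted p = 0.383), Lhcgr, the luteinizing hormone receptor, by -0.55 ± 0.24 (0.894), and Insl3, a Leydig cell hormone, by -0.68 ± 0.48 (0.999). The summed signal of the Leydig cell markers was 15480 to 16020 in the corn oil animals and 8610 to 11580 in the MEHP animals, with no overlap. Most of it came from Cyp17a1 and Hsd3b1, neither of them called. Over all tested probe sets, taken singly, the MEHP animals lay entirely below in 4.36%. At 1, 2, 3 and 12 h the Cyp17a1 means of the controls were 5057, 5861, 3450 and 5934. Those of Cyp11a1 were 450, 624, 319 and 648. Only the 3 h controls were near the 6 h MEHP means of these genes. For Insl3 the 6 h MEHP mean, 865, lay within the control means of other times (623 to 1192). For Lhcgr it was 317, below all of them (401 to 546). The summed signal was not set against those groups. Here, as for every gene of this tissue, fewer cells of a type and less RNA per cell cannot be told apart.

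The other 3 named genes called lower are not steroid genes. Nat8f5, of the N-acetyltransferase 8 family, gave 229, 223 and 164 after corn oil and 45.7, 48.6 and 117 after MEHP (-1.44 ± 0.26, adjusted p = 0.0139). Mrgprf, an orphan receptor related to Mas, gave 60.7, 65.7 and 69 against 24.3, 16.9 and 6.85 (-1.38 ± 0.29, adjusted p = 0.0451). Both were again called lower at 12 h, at -1.94 ± 0.27 (adjusted p = 1.99e-05) and -1.19 ± 0.29 (0.00917). Nat8f5 lost its 6 h call without animal 31, 32, 34 or 35 (0.101 to 0.164) and Mrgprf without any but 31 (0.134 to 0.229). For Atp5po, a subunit of mitochondrial ATP synthase, the called probe set was dim, at 95.9, 82.3 and 54.1 against 12.8, 7.30 and 8.26 (-1.85 ± 0.40, adjusted p = 0.0451). Its other probe set, with signals of 5264 to 6209, changed by -0.10 ± 0.09 (adjusted p = 0.999), so the probe sets of this gene disagree, and the call was lost under each omission (0.0947 to 0.288).

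The changes at 6 h were also set against the 12 corn oil animals of the other times. In the contrast of MEHP at 6 h with the mean of those 4 groups, 102 of 21190 tested probe sets were called. Of the 38 higher probe sets 32 were called higher there and all 38 lay above 0. The same MEHP arrays had picked these probe sets and the 5 lower ones, so their direction here was largely fixed in advance. Of the 5 lower ones, 2, Nat8f5 and Mrgprf, were called lower, all 5 lay below 0, and in 4 of the 5 the corn oil level at 6 h was above that mean. Corn oil at 6 h lay below that mean in 35 of the 38 higher ones, all but Fos, Il1a and the unnamed probe set 1392791_at. Across the 38 the median was 1.12 in the MEHP contrast, against 1.34 with the controls of 6 h, and corn oil at 6 h had a median of -0.27. The corn oil values of 6 h had also helped to pick these probe sets. Controls shifted away from MEHP, and a smaller median here, were therefore favoured in advance. Nfkbia, at 0.82 against its own controls, changed by 0.43 ± 0.09 here (adjusted p = 0.0357). The unnamed probe set 1380306_at, called higher at 6 h, changed by 0.14 ± 0.15 (adjusted p = 0.763), and corn oil at 6 h itself differed there by -0.84 ± 0.15 (adjusted p = 0.0408). Cxcl1 changed by 4.54 ± 0.33 (adjusted p = 9e-09), Ccn1 by 2.44 ± 0.18 (9e-09), Fos by 3.01 ± 0.47 (0.00136) and Egr1 by 2.58 ± 0.35 (0.000223). Among named genes the increases not called there were those of Stxbp6 (0.49 ± 0.14, adjusted p = 0.122), Chmp4c (0.26 ± 0.12, 0.45), Lipa (0.35 ± 0.09, 0.0739) and Cx3cl1 (1.10 ± 0.28, 0.0756). The unnamed probe set 1392613_at, called under every omission, was not called there either (0.425 ± 0.132, adjusted p = 0.188). For it corn oil at 6 h differed by -0.599 ± 0.132 (adjusted p = 0.0737). Corn oil at 6 h differed from the other corn oil groups in 5 probe sets in all.

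**Figure D4:**
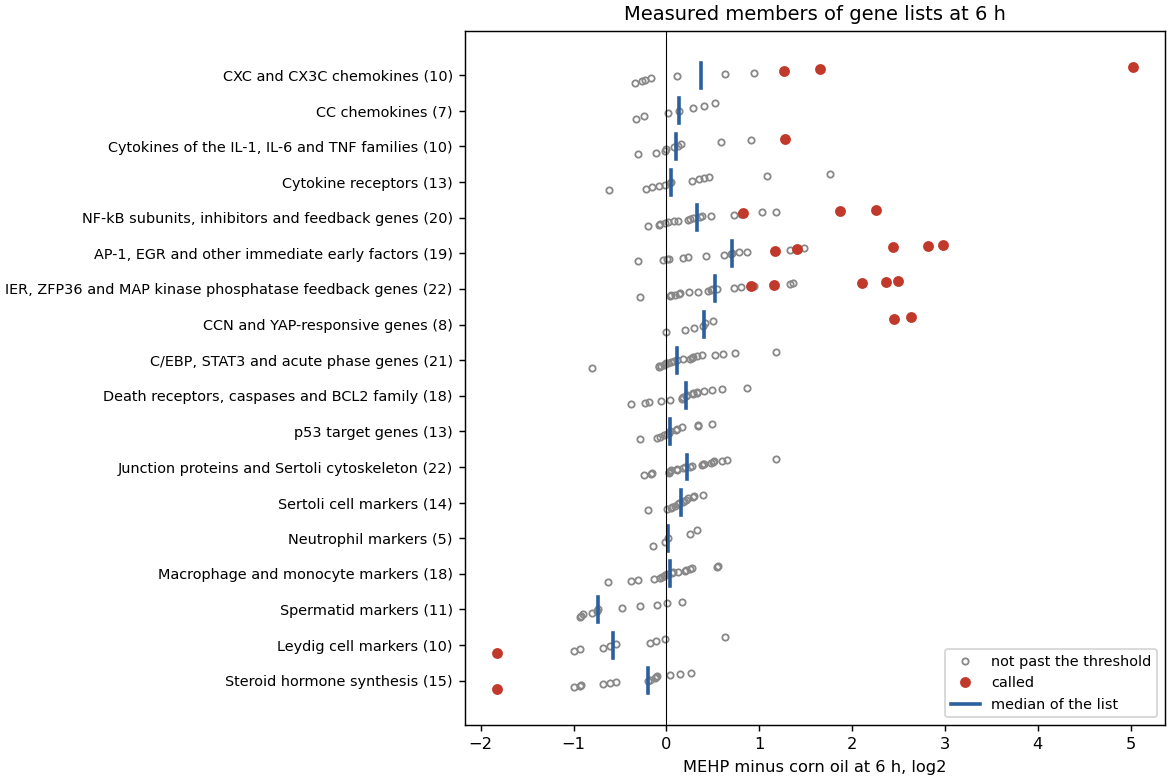
MEHP minus corn oil at 6 h (horizontal axis, log2) for the measured members of 18 gene lists, 1 point per gene with the number of genes in brackets; filled red points passed the threshold, open grey points did not, and blue bars are list medians. Called genes lie in the ligand, NF-kB, immediate early, feedback and CCN lists, and Star is the called point at the left of the Leydig cell and steroid lists.

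No marker of the tubule's own cells passed the threshold. The labelled tissue carried its markers, with Tex101, a germ cell surface protein, at 8954 ± 634 after corn oil and 9320 ± 328 after MEHP, and Shbg, the androgen-binding protein of the Sertoli cell, at 5266 ± 533 and 6061 ± 163. None of 14 Sertoli cell markers was called, 13 lay above 0 and the median was 0.15. Amh, the Sertoli cell hormone, had means of 215 ± 27 and 286 ± 24 (0.39 ± 0.22, adjusted p = 0.999), and Inha, the inhibin alpha subunit, 2948 ± 132 and 3065 ± 194 (0.06 ± 0.15, adjusted p = 0.999). None of 22 junction and Sertoli cytoskeleton genes was called, 19 lay above 0 and the median was 0.23. Itga6, an integrin of the tubule's basal contacts, led them at 1.18 ± 0.29 (adjusted p = 0.135), followed by F11r, a tight junction protein, at 0.65 ± 0.18 (0.265). None of 11 spermatid markers was called either, but 9 lay below 0 with a median of -0.74. Acrv1, an acrosomal protein, had means of 275 ± 98 and 148 ± 99 with overlapping groups (adjusted p = 0.999). The summed spermatid signal was 16490 to 19600 and 13980 to 19720, most of it from Odf2, an outer dense fibre gene, with means of 10970 and 11100. Of 3 erythrocyte markers none was called. Hbb, beta globin, had means of 7291 ± 515 after corn oil and 10730 ± 2195 after MEHP (adjusted p = 0.805), and Slc4a1, the band 3 anion exchanger, 62.8 ± 50.9 and 93.8 ± 18.5 (0.69 ± 0.50, adjusted p = 0.999). Alas2, the erythroid enzyme of haem synthesis, changed by -0.05 ± 0.17. The summed erythrocyte signal, most of it from Hbb, was 7954 to 9105 after corn oil and 10170 to 14870 after MEHP, with no overlap, and its part in the other differences was not tested.

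Lists of other responses held few or no calls. None of 18 death receptor, caspase and BCL2 genes passed (median 0.22), nor any of 13 p53 targets (median 0.03). Fas had means of 31.3 ± 10.8 and 37.4 ± 9.7 (adjusted p = 0.999) and Cdkn1a, the p21 inhibitor of the cell cycle, 442 ± 24 and 570 ± 104 (0.34 ± 0.17, adjusted p = 0.997). None of 21 PPAR target and fatty acid oxidation genes passed (median -0.02), among them Angptl4, an inhibitor of lipoprotein lipase, at 0.87 ± 0.26 (adjusted p = 0.355). The 19 cholesterol genes had a median of -0.05, with Dhcr7, the last enzyme of synthesis, at -0.46 ± 0.14 (adjusted p = 0.342). The 18 NRF2 genes had a median of -0.007 and the 14 heat shock chaperones of -0.04, with no calls. Of 21 C/EBP, STAT3 and acute phase genes none passed (median 0.12), though Cebpd, a C/EBP factor of acute inflammation, came near at 1.18 ± 0.26 (adjusted p = 0.0607). Of 16 interferon-responsive genes none passed (median -0.04). Of 16 glucocorticoid responsive genes 2 were called higher, Dusp1 and Errfi1, which are also in the feedback list above. In that list 10 members lay above 0 and 6 below, with a median of 0.14.

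Placed in the time course, the 6 h increases had in part begun earlier and mostly remained at 12 h, as measured in separate animals. Of the 38 higher probe sets, the numbers also called higher at 1, 2, 3 and 12 h were 0, 9, 7 and 33. Over all tested probe sets the shares called in either direction at 1, 2 and 3 h were 0%, 0.661% and 0.0425%, and at 12 h 5.06% were higher and 3.68% lower. The median change of the 38 was 0.05, 0.54, 0.86, 1.34 and 2.21 at 1, 2, 3, 6 and 12 h. Because the 38 were chosen by their change at 6 h, the 6 h median is raised by that choice and the others are not. Of the 9 probe sets called at 3 h, 7 were called at 6 h in the same direction, and of the 93 called lower at 2 h, 0 were called lower at 6 h. Over all tested probe sets 0.203% were called at 6 h, and 0.0236% were called lower. With so few lower calls, the 0 of 93 tells nothing about the decreases of 2 h. For Cxcl1 the changes at 1, 2, 3, 6 and 12 h were 0.29 ± 0.41, 3.36 ± 0.41, 3.58 ± 0.41, 5.02 ± 0.41 and 6.31 ± 0.41. Ccn1 changed by 0.37 ± 0.23, 1.98 ± 0.23, 2.05 ± 0.23, 2.63 ± 0.23 and 3.48 ± 0.23 at the same times, and Ccn2 by -0.05 ± 0.24, 0.82 ± 0.24, 2.01 ± 0.24, 2.46 ± 0.24 and 2.84 ± 0.24. At 2 h Cxcl1 (adjusted p = 0.00023) and Ccn1 (0.000141) had already passed, whereas Ccn2 had not (0.1065).

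**Figure D5:**
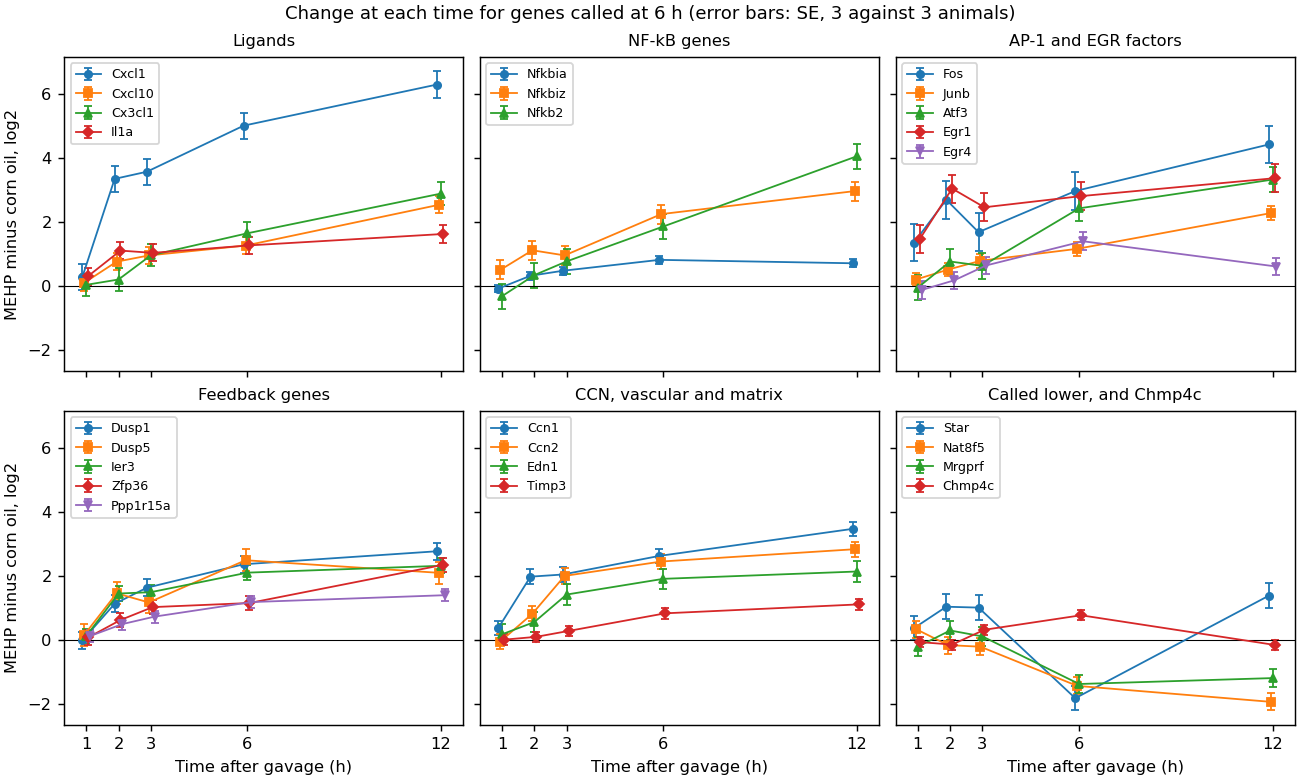
MEHP minus corn oil (vertical axis, log2) at 1, 2, 3, 6 and 12 h (horizontal axis) for 25 genes called at 6 h in 6 panels; points are differences of 3 against 3 animals and error bars standard errors. Most lines are higher at 12 h than at 3 h; Egr4, Chmp4c, Dusp5 and Nfkbia have their highest point at 6 h, and the called Star probe set is below 0 at 6 h only. The genes were chosen by their change at 6 h, which favours a high point there.

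The difference between the effects at neighbouring times was tested directly. No probe set had an effect at 6 h that differed from that at 3 h (0%; smallest adjusted p 0.471, with 777 at an unadjusted p under 0.05, limma). Between 12 and 6 h the effect differed for 318 probe sets (1.50%), and this count was 150 without MEHP animal 31 and 187, 202 and 182 without corn oil animals 34, 35 and 36. Of the 43 called at 6 h 7 were among the 318. Nfkb2 was the 1 higher gene with a larger effect at 12 h, 4.06 ± 0.39, a difference of 2.20 ± 0.56 (adjusted p = 0.0432). Chmp4c had a smaller one, with -0.15 ± 0.16 at 12 h and a difference of -0.93 ± 0.22 (adjusted p = 0.0282), as had probe sets 1392613_at and 1380306_at, which have no single gene symbol. Star, Atp5po and the unnamed probe set 1393793_at, all lower at 6 h, were the other 3. Egr4 (0.61 ± 0.27) and Dpysl5 (0.15 ± 0.12) did not pass at 12 h, but for neither was the difference from 6 h called (adjusted p = 0.463 and 0.273).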

How the data were processed

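Total RNA of the testis was hybridised to 1-colour arrays with biotin labelling, 1 per animal, after Trizol and RNeasy Maxi extraction, per the labels' protocols. Each deposited value is a linear-scale intensity of 1 probe set. Per the submitters' processing notes, GCOS 1.0 was used. How probes were summarised, and the target of the scaling, is not given in the sources used. The 2% trimmed mean was 500.1 to 500.2 on each of the 6 arrays, so the arrays were scaled alike, and arrays correlated with r of 0.964 to 0.982 in log2. The number of arrays limits the precision. Of 31099 probe sets 57 controls were left out; of the other 31042, 20826 had 1 gene symbol in the platform annotation, 436 several and 9780 none. Entrez numbers tied 20758 of the former to RefSeq genes, and 0 symbols changed.

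A probe set was tested if it reached an array's 40th percentile (66.7 to 93.6) in at least 3 of 30 arrays. With limma 3.58.1 under R 4.3.3, log2(signal + 16) of all 30 arrays was modelled by 10 group means with trended moderation. For each contrast the Benjamini-Hochberg adjustment ran over every tested probe set. Moderation left 24.2 degrees of freedom. The script was tested on simulated data. Nothing in the labels states that animals came from separate litters. Genes were named by rule: every gene with 1 symbol called at 6 h, up to 4 members of smallest p per list, and fixed genes of steroid synthesis, Sertoli cells and inflammation. In the lists a gene stands for its brightest probe set; 37 lists held 664 genes, 458 of them measured, 21 called. The comparison, the gene lists and the named genes were chosen with earlier results of these data known. Promoter windows of 300 bases came from RefSeq (GRCr8) and were searched on both strands. Alternatives covered the pseudocount, filter, normalization, moderation, covariates and single animals.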

Additional observations from a re-analysis of the deposited data

Results flagged for a closer look

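These results were singled out because the MEHP effect at 12 h differed from that at 6 h in the test of the difference itself (limma, adjusted over 21190 probe sets). No cause was tested. Among genes called at 6 h, the effect at 12 h was larger for Star, by its called probe set, by 3.21 (adjusted p = 0.00318), where the change turned from below to above 0, for Atp5po, by its dim probe set, by 2.81 (adjusted p = 0.00857), and for Nfkb2 by 2.20 (adjusted p = 0.0432). It was larger by 2.11 for the second Star probe set (adjusted p = 0.0374), whose change at 12 h did not pass. It was larger by 2.19 for the unnamed probe set 1393793_at (adjusted p = 0.0314). It was smaller for Chmp4c by -0.93 (adjusted p = 0.0282), and for the unnamed probe sets 1392613_at by -1.14 (adjusted p = 0.0114) and 1380306_at by -1.38 (adjusted p = 0.00773).

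Of genes not called at 6 h, the effect at 12 h was larger for Ccl2 by 4.73 (adjusted p = 0.00318), for Il6 by 2.26 (adjusted p = 0.046), for Fas by 2.22 (adjusted p = 0.0113), for Cdkn1a by 1.28 (adjusted p = 0.00586) and for Cebpd by 1.69 (adjusted p = 0.0178). Their changes at 6 h lay between 0.18 and 1.18. A second, dimmer Cdkn1a probe set changed by 0.71 ± 0.44 at 6 h. Its effect at 12 h was larger by 1.16 ± 0.62, which did not pass (adjusted p = 0.529).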

How the results depend on the processing

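No paired analysis was possible because every animal carries its own number, shared by no other group. The 43 calls at 6 h became 10 when the 6 arrays were fitted alone, with 4 residual degrees of freedom, and 8 of these were among the 43; 102 were called with the other corn oil groups as the control, an alternative chosen after seeing the data. Leaving out 1 animal gave 13 to 38 calls. The other settings gave 33 to 62. The 318 probe sets whose effect differed between 12 and 6 h became 690 with gavage volume as a covariate and 150 to 284 without 1 animal. No setting that allows the test gave a difference between 6 and 3 h. Called probe sets kept their direction in all 510 comparisons with a setting other than an omission; 421 kept the call and 89 lost it. Inha, not called, turned from 0.055 to -0.041 with gavage volume as a covariate and to -0.238 against the other corn oil groups, and Amh, not called, from 0.392 to -0.069 against the latter; the cause was not tested. Of 111 list medians recomputed, 106 moved by less than the spread between animals, and the steroid list moved from -0.19 to -0.54 with the probe set of smallest p per gene. Depth in the sense of counts does not apply to arrays; signals near the bottom of the scale, such as those of Cxcl1 after corn oil, have folds set largely by the pseudocount of 16.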
